A study of Homo sapiens with 6 samples.

Results

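The enzymes described here make serine from a glycolytic intermediate and pass its carbon to folate. They are PHGDH, PSAT1, PSPH, SHMT1, SHMT2, MTHFD1, MTHFD2, MTHFD1L and ALDH1L2. The 9 genes were picked by symbol from the 31966 rows of the deposited gene count table, each symbol had a row, and all 9 were among the 18486 genes that passed the filter on low counts. The libraries came from Kasumi-1, a long-established line of human acute myeloid leukaemia cells that carry the RUNX1-RUNX1T1 fusion. Each group had 3 samples: the control cells carried an inducible hairpin RNA against luciferase (shLUC), a gene that human cells lack, and the FBL knockdown cells carried an inducible hairpin against FBL (shFBL). Both groups, controls included, received doxycycline at 100 ng/ml for 72 h, so the drug itself was shared by the groups. FBL encodes fibrillarin, the nucleolar enzyme that methylates the ribose of ribosomal RNA. The labels do not say how many hairpin sequences against FBL were used, and effects of a hairpin on other transcripts cannot be told apart from loss of FBL. Nothing in the labels says that replicates were separate cultures, so the spread behind each p-value is that of these samples alone and could be technical.

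In the cytosol, PHGDH oxidises 3-phosphoglycerate, PSAT1 adds an amino group from glutamate, and PSPH removes the phosphate to give serine. SHMT2 in mitochondria and SHMT1 in the cytosol split serine into glycine and a carbon unit that they load onto tetrahydrofolate. MTHFD2 and MTHFD1L carry that unit to formate inside mitochondria, MTHFD1 takes up formate in the cytosol and turns it into the folate forms used for purines and thymidylate, and ALDH1L2 burns the mitochondrial unit to carbon dioxide with gain of NADPH. Dividing leukaemia cells are known to draw on these reactions for nucleotides, and the transcription factors ATF4 and MYC are known to act on several of the genes.

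The libraries held between 85556322 and 103148412 counts. The hairpin target FBL stood at 580, 550 and 544 CPM in the controls (reads of a gene per 1e6 reads of the library, after edgeR's TMM scaling) and at 54.0, 32.4 and 44.9 in the knockdown, a 12.7-fold lower level (log2 fold change -3.67 ± 0.16 SE, n = 3 per group, edgeR adjusted p = 3.93e-06). All 6 Kasumi-1 markers examined (RUNX1, RUNX1T1, KIT, CD34, CD33 and MPO) were above 1 CPM. Their summed level ranged from 6873 to 8332 CPM in controls and 5133 to 6144 in the knockdown, most of it MPO, which fell (log2 fold change -0.42 ± 0.11 SE, edgeR adjusted p = 0.0134), while CD34 rose from 2.55 to 4.03 CPM (edgeR adjusted p = 0.0024). Of 17 measured markers of other cell types, 3 reached 1 CPM, namely CSF1R of monocytes (1.77 CPM in controls, 3.37 in the knockdown), CD8A of T cells (1.01 and 2.04) and CD79A of B cells (0.971 and 1.30). CSF1R and CD8A rose (edgeR adjusted p = 0.000736 and 0.000347), as did the fibroblast marker PDGFRA, from 0.269 to 0.529 CPM (edgeR adjusted p = 0.0209). The summed levels ranged from 1.73 to 1.88 CPM in controls and 2.94 to 3.89 in the knockdown for monocyte markers, from 1.23 to 1.40 and 2.00 to 2.32 for T cell markers, and from 0.204 to 0.356 and 0.510 to 0.756 for fibroblast markers. CD3D, CD3G and CD14 were below 0.1 CPM in every library, and CD3E stood at 0.289 and 0.158 CPM (edgeR adjusted p = 0.124). The part of these markers in the results was not tested. Control replicates 1 and 2 differed from each other more than any other replicate pair (chi-square per degree of freedom 115, against 36.5 to 44.2). Control replicate 1 was the highest control for 4 of the 9 enzymes and control replicate 2 the lowest for 5. In bulk RNA, fewer cells that express a gene and less of its RNA per cell cannot be told apart.

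Messenger RNA for PSAT1, MTHFD1, PHGDH, SHMT2 and SHMT1 fell in the FBL knockdown, by between 1.37-fold and 2.05-fold. The edgeR test at an adjusted p of 0.05 over all tested genes called none of the 9 higher, nor did DESeq2 or limma, and at an unadjusted p under 0.05 edgeR had 7 lower and 0 higher. PSPH, MTHFD2, MTHFD1L and ALDH1L2 did not pass. The 5 that fell stand beside a background in which 17.0% of all tested genes passed as lower and 15.8% as higher. Of all called genes 48.2% were higher, a share that upper-quartile scaling moved to 58.7%. Among the better measured genes, with a mean of at least 10 CPM, to which 8 of the 9 enzymes belong, 27.7% passed as lower and 16.2% as higher. The median log2 fold change of the 9 was -0.54, against -0.01 over all tested genes and -0.06 over those at 10 CPM or more. Every one of the 9 had an estimate below 0, except that PSPH came to 0.01 with upper-quartile scaling and to 0.01 without knockdown replicate 3. For 7 of the 9, all 3 knockdown libraries lay below all 3 controls, a pattern that 23.1% of tested genes showed. Of the 5 cytosolic enzymes 4 fell, and of the 4 mitochondrial enzymes 1 fell. The difference between these shares was not tested and depends on the threshold. The mitochondrial MTHFD2 and MTHFD1L missed the threshold with groups apart (edgeR adjusted p = 0.0556 and 0.0743, unadjusted p = 0.0189 and 0.0278). ALDH1L2 had only 21 to 53 counts a library.

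**Figure D1:**
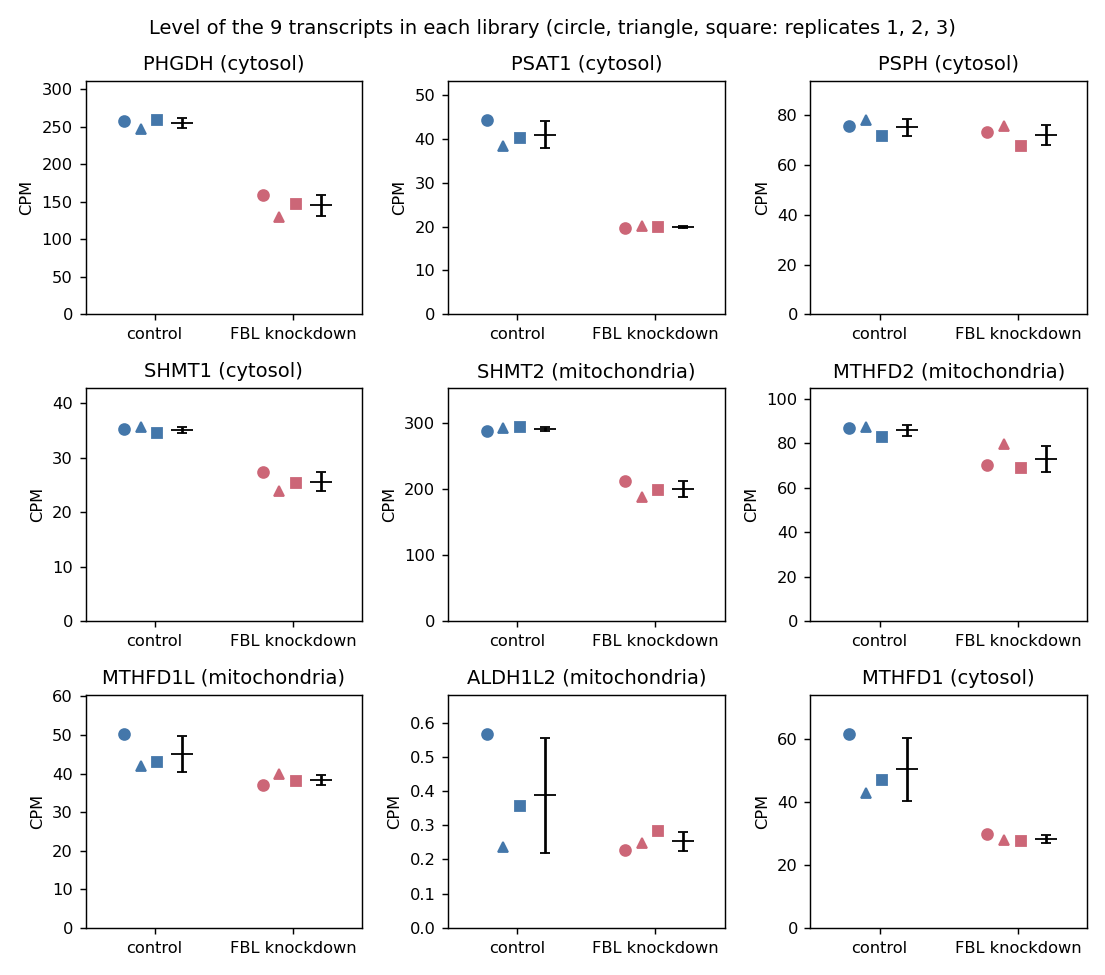
Level of each of the 9 enzymes in each library, in CPM on a linear axis, in a panel per gene. Each panel has 3 control points and 3 knockdown points, with the group mean and SD beside them. The groups are apart for 7 genes, overlap for PSPH and ALDH1L2, and ALDH1L2 lies below 1 CPM in every library.

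**Figure D2:**
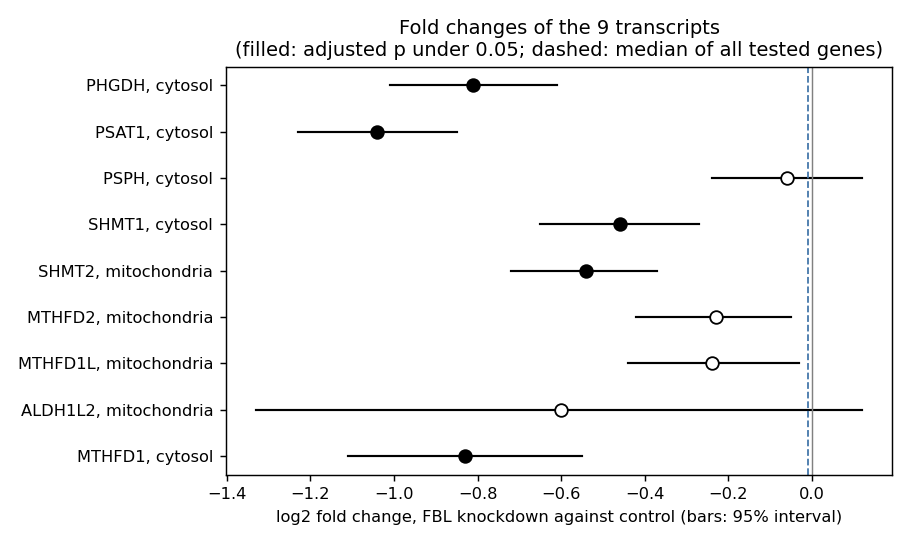
Log2 fold change of each enzyme, knockdown minus control, with its 95% interval. Enzymes are not sorted by size, filled points are called, and the dashed line is the median of all tested genes. PSAT1 lies at -1.04 and PSPH at -0.06, and the intervals of PSPH and ALDH1L2 include 0.

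The serine synthesis enzymes split, in that PHGDH and PSAT1 fell and PSPH did not pass the test. The DNA before PSAT1, the enzyme with the largest called fall of the 9, is shown first because several CCAAT boxes lie together in it. The sequence comes from RefSeq's GRCh38.p14 entry, chr9:78296875-78297124 on the plus strand, and covers the 250 bases before the start of transcription. Capitals mark matches to a GC box (GGGCGG) and to CCAAT boxes (CCAAT).
PSAT1: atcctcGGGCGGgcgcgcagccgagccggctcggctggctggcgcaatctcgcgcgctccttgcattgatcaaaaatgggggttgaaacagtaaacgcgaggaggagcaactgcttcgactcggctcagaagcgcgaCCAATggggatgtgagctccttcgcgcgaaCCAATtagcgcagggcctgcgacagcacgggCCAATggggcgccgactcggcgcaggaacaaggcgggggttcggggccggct
The CCAAT matches lie 113, 83 and 52 bases before the start, and the GC box match 244 bases before it.

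RefSeq windows of 250 bases before to 50 bases after a start were at hand for 6 of the 9 enzymes: PHGDH, PSAT1, SHMT1, MTHFD1, MTHFD2 and MTHFD1L. They were searched on both strands for 4 motifs, and no match of different motifs overlapped. MTHFD1L has 4 such windows, and an enzyme was counted where any of its windows held the letters. A CCAAT box was found in 6 of the 6 enzymes, though not in every window of MTHFD1L, against 34.6% of all 35116 windows of this length and 42.0% of tested genes with a window. GGGCGG was found in 3, PSAT1, SHMT1 and MTHFD1L, against 45.0% of all windows and 75.8% of tested genes with one. The E-box CACGTG, the motif that MYC is known to bind, was found in MTHFD1 and MTHFD1L, against 7.26% of windows and 12.4% of those genes. The letters TGATGNAA, of the kind that ATF4 is known to bind, were found in MTHFD1L only, against 3.62% of windows and 2.66% of those genes. These are letter matches in a window, and other positions were not searched. The sites below show the matched letters in capitals within their flanks, 5′ to 3′ on the plus strand of GRCh38.p14: the CCAAT box of PHGDH at chr1:119711863-119711867, the E-box of MTHFD1 at chr14:64388338-64388343, and the ATF4-type match and the E-box of MTHFD1L at chr6:150866357-150866364 and chr6:150866332-150866337.
PHGDH CCAAT box: tatttccgtCCAATcaaaaggagact
MTHFD1 E-box: gtccctaagCACGTGggttgggttgt
MTHFD1L ATF4-type match: cgccggctcTGATGCAAtcgcgccgg
MTHFD1L E-box: gcccggctcCACGTGcgcagccggcc
The log2 fold changes of the enzymes with a window were -0.81 ± 0.09 for PHGDH, -1.04 ± 0.09 for PSAT1 and -0.46 ± 0.08 for SHMT1 (SE). Those of MTHFD1, MTHFD2 and MTHFD1L were -0.83 ± 0.13, -0.23 ± 0.08 and -0.24 ± 0.09. Whether any of these motifs goes with a fall was not tested.

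PHGDH (ENSG00000092621, GRCh38 chr1:119648411-119744226, plus strand), which carries out the committed step of serine synthesis, stood at 258, 247 and 259 CPM in control replicates 1 to 3 and at 159, 130 and 147 CPM in knockdown replicates 1 to 3. The lowest control lay well above the highest knockdown library, and the 3 controls lay closer together than the 3 knockdown libraries. PHGDH fell 1.75-fold, from a mean of 255 ± 6.82 to 145 ± 14.6 CPM (SD, n = 3 in each group; log2 fold change -0.81 ± 0.09 SE, 95% interval -1.01 to -0.61, edgeR adjusted p = 0.000124). Of all tested genes, 3.77% had a lower log2 fold change. No stretch of 50 bases in its annotated exons was shared with another gene's exons.

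PSAT1 (ENSG00000135069, chr9:78297143-78330093, plus strand), the aminotransferase of the pathway, stood at 44.3, 38.3 and 40.1 CPM in the controls and at 19.6, 20.2 and 20.0 CPM in the knockdown. The knockdown libraries were almost level with each other, and the groups were far apart. PSAT1 fell 2.05-fold, from 40.9 ± 3.06 to 19.9 ± 0.32 CPM (log2 fold change -1.04 ± 0.09 SE, 95% interval -1.23 to -0.85, edgeR adjusted p = 3.35e-05). It was the 1 enzyme of the 9 that fell at least 2-fold, and 1.40% of tested genes had a lower estimate. The pseudogene PSAT1P3, whose counts came to 1.55% of those of PSAT1, also fell (log2 fold change -0.85 ± 0.23 SE, edgeR adjusted p = 0.0149), and 4.62% of 50-base stretches of PSAT1 exons recur in other genes.

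PSPH (ENSG00000146733, chr7:56011051-56051604, minus strand), the phosphatase of the last step, stood at 75.9, 78.2 and 71.6 CPM in the controls and at 73.2, 75.6 and 67.9 CPM in the knockdown. The groups overlapped. The means were 75.2 ± 3.34 and 72.2 ± 3.95 CPM, and the log2 fold change of -0.06 ± 0.08 SE had a 95% interval of -0.24 to 0.12 (edgeR adjusted p = 0.619). A fall as large as that of PHGDH or PSAT1 lay outside this interval. PSPHP1, a pseudogene row with counts equal to 21.8% of those of PSPH, went from 14.4 ± 1.3 to 17.8 ± 2.71 CPM without passing the test (log2 fold change 0.30 ± 0.12 SE, edgeR adjusted p = 0.0832). How reads that match both were counted is not given in the sources used here.

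The unequal change within the pathway was measured inside each library, where library scaling has no part, as the ratio of counts per base of transcript. The ratio of PSPH to PHGDH was 0.981, 1.06 and 0.922 in the controls and 1.54, 1.94 and 1.54 in the knockdown. All knockdown libraries lay above all controls. The mean ratio was 0.987 ± 0.0678 in controls and 1.67 ± 0.233 in the knockdown (SD, n = 3 each), 1.69-fold higher as a ratio of geometric means (exact 2-sided permutation p = 0.1, the smallest that 3 against 3 allows, and 0.15 adjusted over the 6 ratios computed). The ratio of PSAT1 to PHGDH was 0.723, 0.654 and 0.651 in controls and 0.519, 0.655 and 0.574 in the knockdown. These groups overlapped, with means of 0.676 ± 0.0407 and 0.583 ± 0.0687 (exact permutation p = 0.3, adjusted 0.36), in a design where no ratio could reach 0.05.

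**Figure D3:**
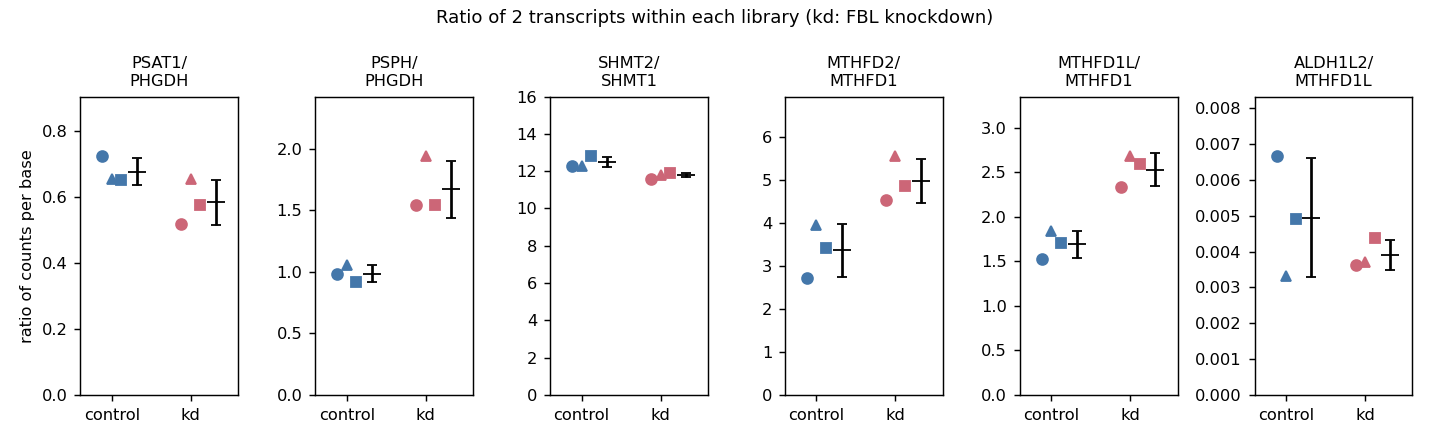
Ratio of counts per length between paired enzymes in each library, on a linear axis, in a panel per ratio with 3 control and 3 knockdown points. The knockdown points lie above the controls for PSPH to PHGDH, MTHFD2 to MTHFD1 and MTHFD1L to MTHFD1, below them for SHMT2 to SHMT1, and among them for PSAT1 to PHGDH and ALDH1L2 to MTHFD1L.

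Both serine hydroxymethyltransferases fell, SHMT2 by 1.46-fold and SHMT1 by 1.37-fold. SHMT2 (ENSG00000182199, chr12:57229327-57234935, plus strand), the mitochondrial form, stood at 288, 292 and 294 CPM in the controls and at 212, 188 and 199 CPM in the knockdown. The 3 controls were nearly level, and each knockdown library was lower than each control. SHMT2 fell 1.46-fold (log2 fold change -0.54 ± 0.08 SE, 95% interval -0.72 to -0.37, edgeR adjusted p = 0.000544). SHMT1 (ENSG00000176974, chr17:18327860-18363563, minus strand), the cytosolic form, stood at 35.2, 35.7 and 34.5 CPM in the controls and at 27.4, 23.9 and 25.3 CPM in the knockdown. Here too the controls were nearly level and the groups apart. SHMT1 fell 1.37-fold, from 35.1 ± 0.62 to 25.6 ± 1.77 CPM (log2 fold change -0.46 ± 0.08 SE, 95% interval -0.65 to -0.27, edgeR adjusted p = 0.00219). SMCR8, on the opposite strand, shares 2.69% of the exon bases of SHMT1 and has 83.6% of its counts, and AC137834.2 shares 8.83% of those of SHMT2 with 3.23% of its counts; without strand, reads in the shared bases cannot be told apart. The ratio of SHMT2 to SHMT1 per length was 12.3, 12.3 and 12.8 in controls and 11.6, 11.8 and 11.9 in the knockdown. The knockdown ratios all lay just below the controls, with means of 12.5 ± 0.287 and 11.8 ± 0.11 and a log2 difference of -0.08 (exact permutation p = 0.1, adjusted 0.15).

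Among the enzymes that process the folate-bound carbon, the cytosolic MTHFD1 fell, and the mitochondrial MTHFD2, MTHFD1L and ALDH1L2 did not pass the test. MTHFD1 (ENSG00000100714, chr14:64388031-64463457, plus strand), which holds the synthetase, cyclohydrolase and dehydrogenase activities in a single protein, stood at 61.6, 42.7 and 46.8 CPM in the controls and at 29.7, 27.7 and 27.4 CPM in the knockdown. Control replicate 1 was high, and even the lowest control lay above the highest knockdown library. MTHFD1 fell 1.78-fold, from 50.3 ± 9.93 to 28.3 ± 1.26 CPM (log2 fold change -0.83 ± 0.13 SE, 95% interval -1.11 to -0.55, edgeR adjusted p = 0.000708). Without control replicate 1 the log2 fold change was -0.67 (edgeR adjusted p = 0.000306). On the opposite strand, AL122035.2 overlaps 8.06% of the exon bases of MTHFD1 and ZBTB25 1.90%, with 10.4% and 12.7% of its counts, and their reads cannot be told apart from its own without strand. The pseudogene MTHFD1P1, at 1.43% of the counts of MTHFD1, fell as well (log2 fold change -0.99 ± 0.28 SE, edgeR adjusted p = 0.0202).

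MTHFD2 (ENSG00000065911, chr2:74198562-74217565, plus strand), the mitochondrial dehydrogenase and cyclohydrolase, stood at 87.1, 87.5 and 82.9 CPM in the controls and at 70.1, 79.8 and 69.1 CPM in the knockdown. The groups did not overlap, and knockdown replicate 2 came nearest to the controls. The means were 85.8 ± 2.54 and 73.0 ± 5.9 CPM, and the log2 fold change of -0.23 ± 0.08 SE (95% interval -0.42 to -0.05) missed the threshold (edgeR adjusted p = 0.0556). MTHFD2 passed in 4 of 18 alternative settings. These were DESeq2 (adjusted p = 0.0473), limma on log2 RPKM with 1 or 0.1 added (adjusted p = 0.0496 and 0.0497), and the fit without knockdown replicate 2 (edgeR adjusted p = 0.0403, log2 fold change -0.30). On the opposite strand, SLC4A5 overlaps 27.2% of the exon bases of MTHFD2 and has 5.41% of its counts, and AC006030.1 overlaps 6.06% and has 14.8% of its counts. The strand setting of the counting is not given in the sources used here, so reads of antisense partners cannot be told apart from those of the enzyme.

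MTHFD1L (ENSG00000120254, chr6:150865549-151101887, plus strand), the mitochondrial synthetase that releases formate, stood at 50.4, 42.0 and 42.9 CPM in the controls and at 37.1, 39.8 and 38.1 CPM in the knockdown. The groups did not overlap, though the gap between the lowest control and the highest knockdown library was narrow. The log2 fold change was -0.24 ± 0.09 SE (95% interval -0.44 to -0.03, edgeR adjusted p = 0.0743). It moved to -0.29 without control replicate 2 (edgeR adjusted p = 0.0278) and to -0.15 without control replicate 1 (edgeR adjusted p = 0.214). ALDH1L2 (ENSG00000136010, chr12:105019784-105084577, minus strand), the mitochondrial enzyme that oxidises the carbon unit, was scarce, with 53, 23 and 36 counts in the controls and 21, 23 and 25 in the knockdown. In CPM these were 0.568, 0.235 and 0.356 against 0.228, 0.249 and 0.282, and the groups overlapped. Its log2 fold change of -0.60 ± 0.33 SE had a 95% interval of -1.33 to 0.12 (edgeR adjusted p = 0.186), and was -0.24 without control replicate 1 and -0.86 without control replicate 2 (edgeR adjusted p = 0.605 and 0.0282). The neighbour C12orf45, which shares 145 exon bases with ALDH1L2 on the opposite strand, had 2330% of its counts.

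MTHFD1L and MTHFD2 were each set against MTHFD1 within the libraries. The ratio of MTHFD1L to MTHFD1 per length was 1.53, 1.84 and 1.71 in controls and 2.33, 2.68 and 2.59 in the knockdown. That of MTHFD2 to MTHFD1 was 2.72, 3.95 and 3.41 in controls and 4.54, 5.55 and 4.85 in the knockdown. In both cases all knockdown ratios lay above all control ratios. The means were 1.69 ± 0.155 and 2.53 ± 0.183 for MTHFD1L, a 1.5-fold difference, and 3.36 ± 0.613 and 4.98 ± 0.517 for MTHFD2, a 1.49-fold difference (exact permutation p = 0.1 and adjusted 0.15 for each). Control replicate 1, where MTHFD1 was high, had the lowest ratio of both. The ratio of ALDH1L2 to MTHFD1L overlapped between the groups (0.00666, 0.00331 and 0.0049 in controls, 0.00362, 0.0037 and 0.00437 in the knockdown, exact permutation p = 0.4, adjusted 0.40).

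Levels of different enzymes were compared per base of transcript, first with the deposited RPKM (CPM per kilobase of gene length, here with library sizes scaled by TMM factors taken over all rows and not only the tested genes). In control cells SHMT2 had the highest level of the 9 at 60.3 ± 0.772 RPKM (SD, n = 3). PHGDH at 27.7 and PSPH at 27.3 followed, and their ranges over the 3 controls overlapped. PSAT1 at 18.7 and MTHFD2 at 17.7 also had overlapping ranges, as did MTHFD1 at 5.38 and SHMT1 at 4.84, with MTHFD1L between these pairs at 9.0. ALDH1L2 was lowest at 0.0455 RPKM. In the knockdown SHMT2 remained highest at 41.2 RPKM, PSPH at 26.1 now stood apart above PHGDH at 15.7, and MTHFD2 at 14.9 was above PSAT1 at 9.09. The ranges of PHGDH and MTHFD2 overlapped in the knockdown.

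**Figure D4:**
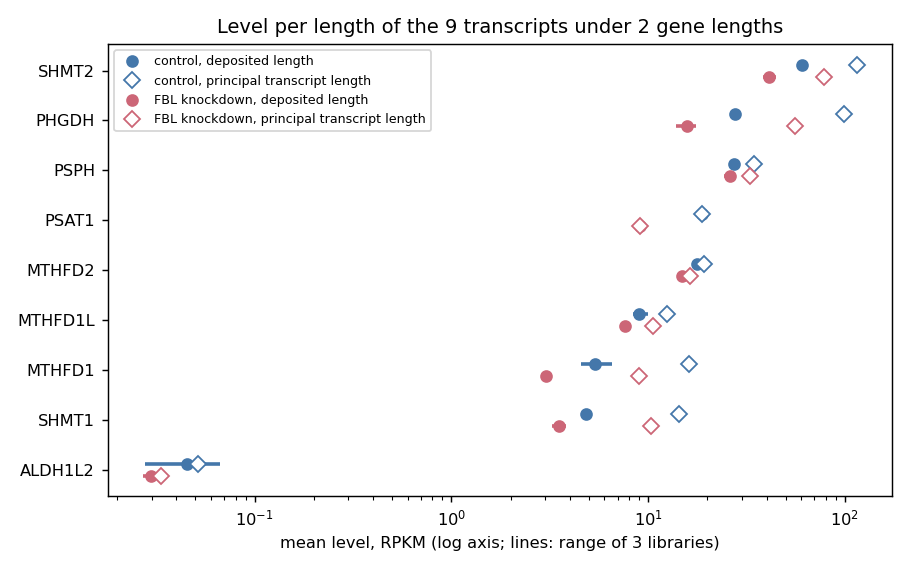
Level per length of the 9 enzymes in controls and knockdown, in RPKM on a log axis, ordered by the control mean. Points are group means with the deposited lengths, and lines give the range over the libraries of the group. Open diamonds are group means with the length of the longest APPRIS principal transcript instead. With the deposited lengths SHMT2 leads in both groups at 60.3 and 41.2 RPKM, and PHGDH moves from beside PSPH to below it.

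The order depends on the length used. The deposited length of PHGDH is 9217 bases, and that of MTHFD1 9377 bases, equal to all annotated exons of all isoforms joined. With the longest APPRIS principal transcript instead, 2585 bases for PHGDH and 3136 for MTHFD1, PHGDH stood at 98.7 in controls and 56.1 in the knockdown on the same per-kilobase scale. It was then above PSPH in both groups (34.6 and 33.1), while SHMT2 stayed first at 115 in the controls. MTHFD1, at 16.1 ± 3.11 in the controls (SD), then had a higher mean than MTHFD1L at 12.5 ± 1.23. Its control mean was above that of SHMT1, at 14.3 ± 0.282, with either length. In the knockdown the mean of MTHFD1 was below that of SHMT1 with either length. The values were 3.01 against 3.51 RPKM with deposited lengths and 9.0 against 10.4 with principal lengths. With principal lengths MTHFD1 was also below MTHFD1L in the knockdown, at 10.6. A fold change of 1 gene between the groups does not depend on its length.

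Summed over the 9 enzymes, the level was 174, 170 and 169 RPKM in the controls and 127, 119 and 118 RPKM in the knockdown. The groups were well apart, and the knockdown sum was 70.9% of the control sum (171 ± 2.94 against 121 ± 5.1 RPKM, exact permutation p = 0.1, the smallest that 3 against 3 allows). With principal transcript lengths it was 67.8%. SHMT2 made up 35.3% of the sum in controls and 34% in the knockdown. PSPH went from 16.0% ± 0.719 to 21.5% ± 1.13 of the sum, PSAT1 from 11% ± 0.61 to 7.5% ± 0.316, and PHGDH from 16.2% ± 0.443 to 13.0% ± 1.08 (SD, n = 3). The 3 serine synthesis enzymes together held 43.1% and 42.0%, and the 4 mitochondrial enzymes 50.9% and 52.6%. Shares, too, depend on the length used: with principal transcript lengths PHGDH made up 30.0% in controls and 25.1% in the knockdown, PSPH 10.5% and 14.8%, PSAT1 5.68% and 4.08%, and SHMT2 34.9% and 35.2%.

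Around these enzymes, 56 genes in 8 lists of the same metabolism were followed, and 46 of them were measured well enough to test. By the edgeR test 16 were lower and 5 higher, or 34.8% and 10.9% of the 46, beside 17.0% and 15.8% of all tested genes and 27.7% and 16.2% of those at 10 CPM or more. Their median log2 fold change was -0.19. Of the 4 enzymes that spend folate carbon, 3 fell: GART, which makes purine precursors in several steps, from 62.3 ± 8.51 to 38.6 ± 0.594 CPM, ATIC, which closes the purine ring, from 60.6 ± 9.28 to 38.2 ± 1.44, and TYMS, which makes thymidylate, from 262 ± 10.5 to 183 ± 10.7. Their log2 fold changes were -0.69 ± 0.10, -0.67 ± 0.11 and -0.51 ± 0.08 (SE, edgeR adjusted p = 0.000586, 0.00106 and 0.00084). GART and ATIC, like MTHFD1, were highest in control replicate 1, at 71.9 and 71.0 CPM. MTFMT, the formyltransferase for mitochondrial initiator tRNA, stood at 7.22 and 7.91 CPM and did not pass (log2 fold change 0.13 ± 0.11).

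Of the 10 tested genes listed under the methionine cycle and transsulfuration, 9 fell and 0 rose, with a median log2 fold change of -0.49. The counts were 8 and 0 with DESeq2, 7 and 0 with limma voom, and 9 and 0 at an unadjusted edgeR p under 0.05. AHCYL1 and AHCYL2, relatives of AHCY, were among the 9 (edgeR adjusted p = 0.00439 and 0.0464). Whether their proteins act in the cycle was not examined. Among all tested genes 17.0% passed as lower, and among those at 10 CPM or more 27.7%. MTR, AHCYL2 and GNMT passed narrowly (edgeR adjusted p = 0.0406, 0.0464 and 0.0487), and GNMT had only 15 to 42 counts a library. MAT2A, the main S-adenosylmethionine synthetase outside the liver, fell from 79.0 ± 7.22 to 50.1 ± 1.96 CPM (log2 fold change -0.66 ± 0.09 SE, edgeR adjusted p = 0.000377). AHCY, which clears S-adenosylhomocysteine, fell from 682 ± 39.0 to 505 ± 30.9 CPM (log2 fold change -0.43 ± 0.09, edgeR adjusted p = 0.00311). CTH, which makes cysteine from cystathionine, fell from 2.22 ± 0.278 to 1.14 ± 0.207 CPM, and MAT1A, the liver synthetase, from 1.47 ± 0.101 to 0.681 ± 0.0387 CPM (edgeR adjusted p = 0.00166 and 0.000465). The gene of the list that did not pass was MTRR, the reductase that repairs methionine synthase (log2 fold change -0.12 ± 0.12).

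Of 9 tested carriers of serine and glycine, 3 rose and 1 fell (3 and 2 with DESeq2, 3 and 4 at an unadjusted edgeR p under 0.05), with a median log2 fold change of 0.07. Among all tested genes 15.8% passed as higher and 17.0% as lower. SFXN3, a relative of the mitochondrial serine carrier SFXN1, rose from 2.66 ± 0.445 to 5.97 ± 0.407 CPM (log2 fold change 1.17 ± 0.14 SE, edgeR adjusted p = 0.000169). SLC1A4, a plasma membrane carrier of serine and alanine, rose from 38.8 ± 1.16 to 60.4 ± 0.804 CPM (0.64 ± 0.08, edgeR adjusted p = 0.000183), and SLC25A38, a mitochondrial glycine carrier, from 56.1 ± 0.389 to 70.8 ± 1.21 CPM (0.34 ± 0.07, edgeR adjusted p = 0.00593). SLC1A5, better known as a glutamine carrier, fell from 467 ± 15 to 381 ± 26.7 CPM (-0.29 ± 0.08, edgeR adjusted p = 0.0191), a call lost in 5 of 18 alternative settings. SFXN1 itself stood at 82.4 and 72.1 CPM (edgeR adjusted p = 0.0814).

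**Figure D5:**
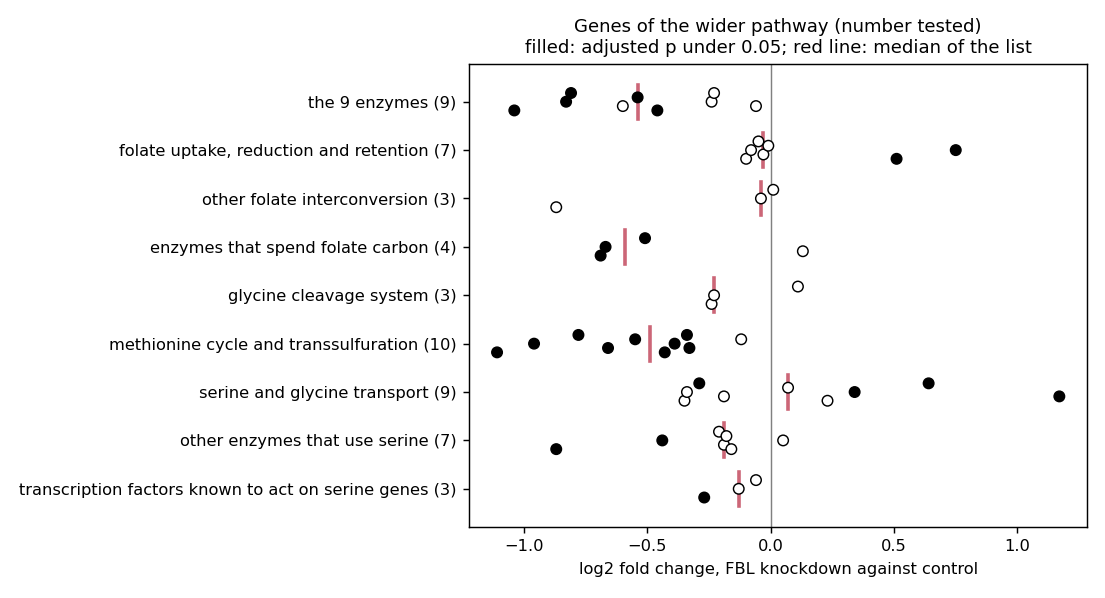
Log2 fold change, knockdown minus control, of each tested gene in the 9 enzymes and in 8 lists of related genes, with called genes marked and the list median as a line. The genes of the methionine cycle and transsulfuration list lie below 0, with 9 of 10 called, and the transport list spreads to both sides of 0.

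Of 7 tested genes for folate uptake, reduction and retention, 2 rose and 0 fell with edgeR, at an adjusted and at an unadjusted p under 0.05, and likewise with DESeq2. Beside them stand 15.8% of all tested genes called higher and 17.0% called lower. SLC25A32, the mitochondrial folate carrier, rose from 19.9 ± 2.58 to 33.6 ± 2.82 CPM (log2 fold change 0.75 ± 0.11 SE, edgeR adjusted p = 0.000554), and GGH, the hydrolase that trims folate polyglutamates, from 21.7 ± 2.55 to 31.0 ± 4.11 CPM (0.51 ± 0.12, edgeR adjusted p = 0.00813). GGH missed the threshold without knockdown replicate 2 (0.45, edgeR adjusted p = 0.0501). The folate carrier SLC19A1 stood at 223 and 211 CPM and did not pass. None of the 3 tested genes of other folate interconversion passed (MTHFS -0.87 ± 0.46 and MTHFD2L -0.04 ± 0.11 on the log2 scale, edgeR adjusted p = 0.176 and 0.821). The estimate for MTHFS was -0.26 without control replicate 2 and -1.21 without control replicate 1 (edgeR adjusted p = 0.642 and 0.0261). None of the 3 tested genes of the glycine cleavage system passed either, and for both lists the count was 0 at an unadjusted edgeR p under 0.05, with DESeq2 and with limma (DLD -0.24 ± 0.14 and GCSH 0.11 ± 0.16, edgeR adjusted p = 0.22 and 0.633), though DLD passed without control replicate 2 (-0.37, edgeR adjusted p = 0.023), and GLDC, its decarboxylase, had too few counts to test.

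Of 7 other tested enzymes that use serine, 2 fell, or 28.6%, beside 17.0% of all tested genes and 27.7% of those at 10 CPM or more. Both that fell had means below 10 CPM. SPTLC2, a subunit of the first enzyme of sphingolipid synthesis, fell from 6.36 ± 0.831 to 3.47 ± 0.245 CPM (edgeR adjusted p = 0.000517). SRR, which makes D-serine, fell from 9.51 ± 1.01 to 7.02 ± 0.453 CPM (edgeR adjusted p = 0.0114). SRR missed the threshold with the replicate number as a block (edgeR adjusted p = 0.0579). Among 3 transcription factors known to act on serine genes, MYC had a log2 fold change of -0.27 ± 0.09 SE (279 ± 28.7 against 232 ± 9.19 CPM, edgeR adjusted p = 0.0426), which missed the threshold in 13 of 18 alternative settings. The messenger RNA of ATF4 stood at 557 and 509 CPM (-0.13 ± 0.08, edgeR adjusted p = 0.257) and that of NFE2L2 at 4.82 and 4.61 CPM (edgeR adjusted p = 0.804). ATF4 is known to be controlled largely at translation, which these libraries do not measure.

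The 3 genes outside the 9, at 10 CPM or more, whose levels over the 6 libraries lay closest to those of PHGDH were PFKP, UNC45A and RNF40. Likeness was the root mean square distance between log2 CPM values centred on their control means, and came to 0.0279, 0.0292 and 0.0358. PFKP, the platelet-type phosphofructokinase of glycolysis, stood at 125, 120 and 119 CPM in the controls and at 75.9, 62.8 and 69.3 in the knockdown, with knockdown replicate 1 highest and replicate 2 lowest as for PHGDH. Of the 7 other enzymes at 10 CPM or more, MTHFD1 lay nearest to PHGDH on this scale at 0.159, then PSAT1 at 0.190 and SHMT2 at 0.196, and PSPH was far off at 0.549.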

How the data were processed

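RNA of 6 Kasumi-1 samples was sequenced from NEBNext Ultra libraries, per the labels' protocols. The authors deposited whole-number read counts per Ensembl gene, with gene lengths, and RPKM values; all 191796 RPKM values could be recomputed from the counts, the lengths and library sizes scaled by TMM factors over all rows, within a relative tolerance of 1e-06. Per the submitters' processing notes, the tools were cutadapt 1.18, HISAT2, featureCounts and edgeR, and the build GRCh38. Which annotation release, strand setting and rule for multiply mapped reads were used is not given in the sources used here. Gene positions were taken from GENCODE release 29, in which 30444 of 31848 matched genes have the deposited length as joined exons.

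Counts were fitted with edgeR 4.0.16 (R 4.3.3; filterByExpr with minimum count 10, TMM, quasi-likelihood test, Benjamini-Hochberg adjustment over 18486 genes, threshold 0.05). CPM are scaled by TMM. On simulated data with 18282 tested genes, 200 were changed, all with a mean above 1 CPM. The fit found 66% of the 1.5-fold and 97% of the 2-fold changes, and 5.23% of its calls were false. In the real data 6061 genes were called, so these rates hold for the simulated setting and not for the real share of changed genes. Ratios within libraries were tested by exact permutation. Alternatives, DESeq2 1.42.0 and limma 3.58.1 among them, are given at the end. The legacy dispersion setting, the fit without control replicate 2 and knockdown replicate 1, and the principal transcript lengths were chosen after seeing the data.

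The enzymes and the lists were chosen with earlier results of these data known. Named from each list were up to 4 genes with the smallest p among those called at 1 CPM or more, or the 2 with the smallest p where none was called; SLC19A1, MTFMT, MTRR, SFXN1, ATF4, NFE2L2 and GLDC were added after their values were seen. Related rows were those with a member's symbol plus P and digits. The proteomics that the series mentions was not analysed here.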

Additional observations from a re-analysis of the deposited data

How the results depend on the processing

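The falls of PHGDH, PSAT1, SHMT1, SHMT2 and MTHFD1 kept their direction and their call in all 18 alternative settings, with log2 fold changes of -0.89 to -0.73, -1.08 to -0.97, -0.51 to -0.37, -0.59 to -0.48 and -0.96 to -0.66. The count of enzymes called ran from 5 to 7, and from 5 to 7 when leaving out each library in turn. PSPH (-0.10 to 0.01 when leaving out each library) turned to 0.01 with upper-quartile scaling (adjusted p = 0.958) and to 0.01 without knockdown replicate 3 (adjusted p = 0.946). Also past 0 went MTHFD2L (-0.10 to 0.05), to 0.03 with upper-quartile scaling, to 0.01 with the stricter filter and to 0.05 without control replicate 1, and GCSH (-0.02 to 0.27), to -0.02 without control replicate 2; the cause was not tested. Of all genes, 6061 were called (48.2% of them higher), and 3923 to 6943 when leaving out each library; upper-quartile scaling gave 58.7% higher. Leaving out knockdown replicate 2 gave 3923 and knockdown replicate 3 gave 4017; leaving out control replicate 2 with knockdown replicate 1, added after seeing the data, gave 7424. Genes of the 8 lists called numbered 21, or 15 to 25 when leaving out each library, and 13 with the stricter filter, which tested 34 of them in place of 46. With the replicate number as a block, 3833 genes were called, 5 of the 9 enzymes kept their call and 14 genes of the lists were called. Deviations from the group means correlated at -0.284, -0.198 and 0.0449 between samples of the same number. Across numbers the highest was 0.312, between control replicate 2 and knockdown replicate 1. These values show no pairing by number, but with 3 samples a group they cannot exclude one. ALDH1L2, at 21 to 53 counts a library, had the fewest counts of the 9, and its log2 fold change ran from -0.86 without control replicate 2 to -0.24 without control replicate 1.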
